A study of Mus musculus with 5 samples.

Results

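Regulated exocytosis, the last step of insulin secretion, was followed at the transcript level through 74 genes of the 23951 in the authors' deposited table. They are all rows for syntaxins (Stx), syntaxin-binding proteins (Stxbp), VAMPs, synaptotagmins (Syt), synaptotagmin-like proteins (Sytl), Munc13 proteins (Unc13), complexins (Cplx) and RIM proteins (Rims), together with 4 genes of the SNAP25 type and 6 of the Rab3 and Rab27 GTPases, picked by symbol alone. The cells were pancreatic beta cells of transgenic mice. All animals carried the Ins-rtTA driver, in which an insulin promoter makes a tetracycline-dependent activator in beta cells, and a tet-GFP reporter. In the p16 group, 3 samples, the animals also carried tet-p16ink4a, so that the cell cycle inhibitor p16INK4a was made together with GFP. In the GFP group, 2 samples, the fluorescent protein was induced alone. Every animal received tetracycline for 10 days, islets were dissociated, and GFP-positive cells were sorted for total RNA sequencing. The labels used here give no age, sex or strain background. The comparison asks which transcripts of the release machinery differ once p16INK4a is switched on.

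An insulin granule fuses when a VAMP on its membrane zippers with a syntaxin and a SNAP25-type protein on the plasma membrane, the SNARE complex. Munc18 proteins hold and guide the syntaxin, Munc13 and RIM proteins prime the granule, complexins clamp and promote fusion, and synaptotagmins sense calcium. Rab3 and Rab27 GTPases with their synaptotagmin-like effectors bring the granule to the membrane. In beta cells this machinery releases insulin in bursts when calcium enters.

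Levels are FPKM, fragments per kilobase of transcript scaled to library size, so they can be compared between genes of different length. The table gives 1 value per group and gene, with no value per sample, so the spread between samples is not shown and no SD can be given. Depth per library is unknown for the same reason. A gene counted as changed when its q-value in the authors' deposited table was below 0.05. The target of the transgene rose as labelled: Cdkn2a, which encodes p16INK4a, stood at 0.657 FPKM in GFP cells and 34.6 FPKM in p16 cells (q = 0.00245 in the authors' deposited table).

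Transcripts of all 10 families were present in both groups, and a single member passed the test. Of the 74 genes 59 were tested in the authors' deposited table, 1 of them was called higher with p16 and 0 were called lower. That is 1.69% of the tested members, beside 5.42% of all 13264 tested genes called in either direction, 4.32% higher and 1.10% lower. At an unadjusted p below 0.05, 5 members had the higher value with p16 and 4 the lower one in the authors' deposited table, 15.3% of those tested, beside 17.2% of all tested genes (10.2% higher and 7.01% lower). The median log2 ratio of FPKM, p16 over GFP, was -0.06 over the tested members and -0.02 over all tested genes. Its median size without sign was 0.23 in the members and 0.32 in all tested genes. The plot of p16 against GFP values sets the tested members beside every other tested gene.

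**Figure D1:**
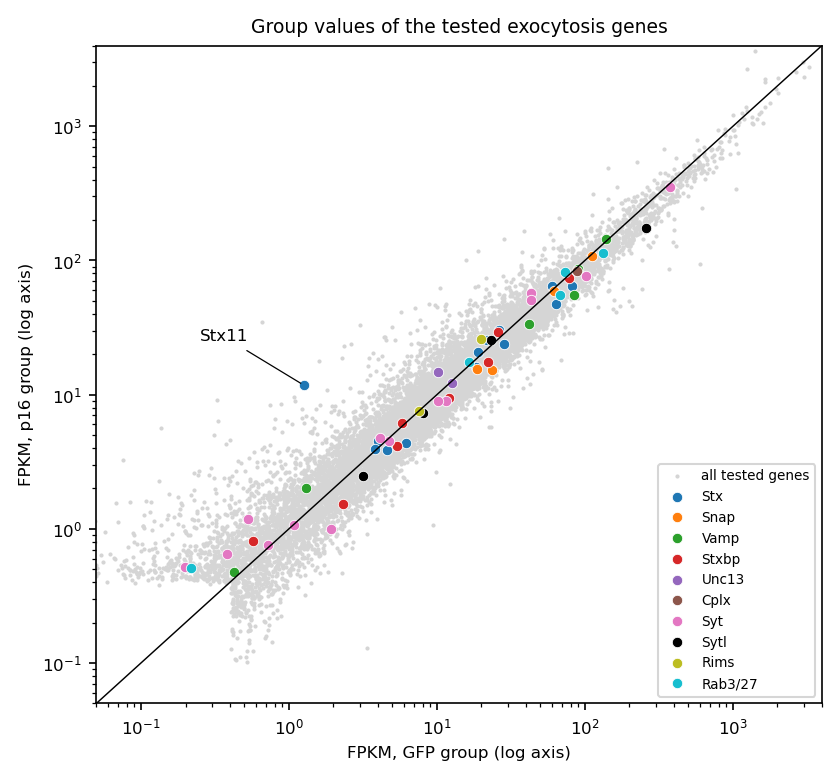
FPKM in the GFP group (x axis, log) against FPKM in the p16 group (y axis, log) for all tested genes in light grey and for the 59 tested exocytosis genes coloured by family; the black line marks equal values. Most members lie along the line, and Stx11 lies far above it, at 1.27 FPKM in GFP cells and 11.7 FPKM in p16 cells.

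The member that changed was Stx11. It encodes syntaxin 11, an unusual syntaxin that has no transmembrane segment, is held to membranes by lipid anchors, and is known for the release of cytotoxic granules by lymphocytes. Its locus spans chr10:12659787-12684065 in the mm9 build. Stx11 stood at 1.27 FPKM in the GFP group and at 11.7 FPKM in the p16 group. This was a 9.22-fold rise (q = 0.00245 in the authors' deposited table, the smallest it holds, shared by 271 genes). Among 13174 tested genes with a value above 0 in both groups, Stx11 had the 64th largest ratio. Of 2510 tested genes whose mean FPKM lay within 1.5-fold of its own, 5 had a ratio at least as large, Stx11 included. Its log2 ratio of 3.21 was 2.49 with 1 FPKM added to each value and 1.41 with 5 FPKM added, because the GFP value is low.

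The sequence around the annotated start of Stx11, the gene that changed, is shown beside that of Stx1a. Stx1a, the classical plasma membrane syntaxin of insulin release, did not pass. Both sequences are RefSeq promoter windows of the GRCm38.p6 build, 250 bases before to 50 bases after the start, printed 5′ to 3′ along the gene. They lie at chr10:12964210-12964509 on the minus strand and at chr5:135023232-135023531 on the plus strand. Capitals mark matches to GGGCGG on either strand, the GC box bound by Sp family factors.
Stx11: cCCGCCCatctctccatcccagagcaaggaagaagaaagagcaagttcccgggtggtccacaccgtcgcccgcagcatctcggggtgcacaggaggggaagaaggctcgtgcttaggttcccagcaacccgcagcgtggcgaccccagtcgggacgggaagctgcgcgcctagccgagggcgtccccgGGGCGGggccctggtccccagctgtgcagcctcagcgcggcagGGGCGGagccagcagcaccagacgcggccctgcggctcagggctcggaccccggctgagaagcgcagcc
Stx1a: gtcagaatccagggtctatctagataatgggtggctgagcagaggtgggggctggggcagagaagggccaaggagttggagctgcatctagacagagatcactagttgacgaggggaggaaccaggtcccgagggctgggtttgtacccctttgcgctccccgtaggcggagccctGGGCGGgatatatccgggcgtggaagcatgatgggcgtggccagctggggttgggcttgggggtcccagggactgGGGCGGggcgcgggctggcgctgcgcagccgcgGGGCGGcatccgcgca
Each window held 3 GC boxes, and 35.7% of all 32851 windows in the RefSeq table held at least 1. Such a box was common among the members, in 43 of their 67 windows, or 64.2%. GC content was 71.0% for Stx11 and 66.3% for Stx1a, where the median was 61.3% over the windows of members and 52.7% over all windows. Neither window held the interferon response core GAAANNGAA, present in 8.56% of all windows on either strand, the AP-1 motif TGANTCA (7.81%), the cAMP response element TGACGTCA (1.79%) or the E-box CACGTG (7.15%). These letters are a description of the window and not a test of any factor. Of the 74 members, 54 had an entry in that table.

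Stx11 was the least abundant of the 13 tested syntaxins in the GFP group and the ninth most abundant of the 15 in the p16 group. Its share of all syntaxin FPKM was 0.374% with GFP and 3.65% with p16. Among syntaxins that act at the plasma membrane, Stx3, which serves newly arriving granules, stood at 21.7 FPKM in GFP cells and 25.4 FPKM in p16 cells. Stx4a stood at 18.3 and 15.99 FPKM. Stx1a was scarce, at 3.98 and 4.52 FPKM (q = 0.862 in the authors' deposited table), and Stx2 stood at 3.83 and 3.92 FPKM. With p16, Stx11 thus stood above Stx1a and Stx2 and below Stx4a and Stx3. Stx19 was under 0.2 FPKM in both groups and was not tested.

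**Figure D2:**
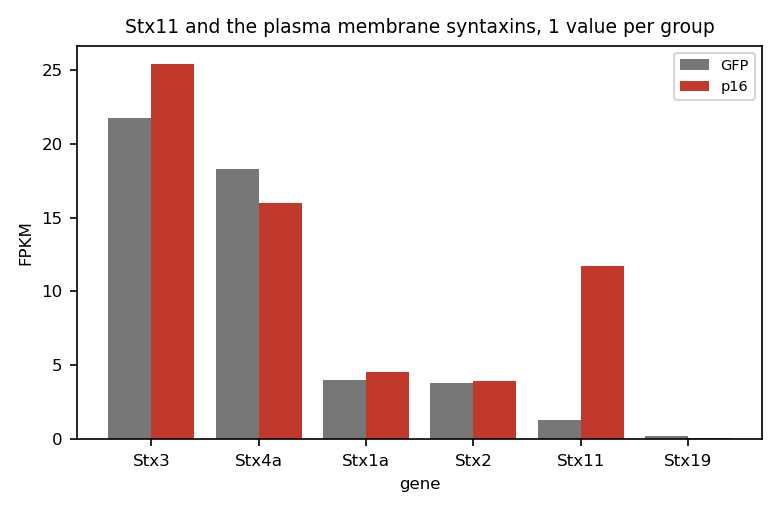
FPKM (y axis, linear from 0) of Stx11 and 5 plasma membrane syntaxin genes; grey bars are the GFP group value and red bars the p16 group value, 1 value per group without an error. Stx11 reaches 11.7 FPKM with p16 from 1.27 FPKM with GFP, while Stx1a and Stx2 stay between 3.83 and 4.52 FPKM.

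The other genes through which lymphocytes release granules with syntaxin 11 were set beside it after their values had been seen. Stxbp2, the Munc18 protein that pairs with syntaxin 11, stood at 26.0 FPKM in GFP cells and 29.1 FPKM in p16 cells (q = 0.831 in the authors' deposited table). Unc13d, the Munc13 protein of those cells, was near 0, at 0.0460 and 0.0162 FPKM, and was not tested. Rab27a stood at 132.9 and 114.4 FPKM (q = 0.764 in the authors' deposited table), and both it and Vamp8 are genes that beta cells use themselves. Snap23, the SNAP25-type protein of those cells, had the lower value with p16, at 23.6 and 15.2 FPKM (p = 0.022, q = 0.186 in the authors' deposited table).

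Leukocyte markers were at or near 0 in both groups for the most part. The summed FPKM of 13 such genes was 7.56 with GFP and 8.11 with p16, of which Fcer1g made up 6.39 and 5.53 FPKM. The pan-leukocyte gene Ptprc stood at 0.00329 and 0.0269 FPKM, the T cell gene Cd3e was listed at 0 in both groups, and the macrophage gene Emr1 was listed at 0 with p16. The tested markers were Cd68 and Fcer1g, and Cd68, a lysosomal protein of macrophages, rose from 0.229 FPKM in GFP cells to 1.95 (q = 0.0498 in the authors' deposited table). Stromal markers summed to 0.466 FPKM in GFP cells and 4.85 FPKM in p16 cells over 6 genes, and both that were tested, Col1a2 and Dcn, were called higher in the authors' deposited table. In bulk samples a change in the number of cells of a type and a change in RNA per cell cannot be told apart. The part of leukocytes and stromal cells in the Stx11 value was not tested.

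The remaining syntaxins serve inner membranes, and none of them passed. Stx7, an endosomal syntaxin, was the most abundant, at 82.2 FPKM in GFP cells and 64.6 FPKM in p16 cells (q = 0.548 in the authors' deposited table). Stx12, also endosomal, stood at 63.3 and 47.3 FPKM (q = 0.442 in the authors' deposited table). Stx5a, which works between the endoplasmic reticulum and the Golgi, stood at 59.8 and 64.3 FPKM (q = 0.909 in the authors' deposited table). Of 5 endosomal and trans-Golgi syntaxins (Stx6, Stx7, Stx8, Stx12, Stx16), 4 had the lower value with p16, with a median log2 ratio of -0.35. All 12 tested syntaxins other than Stx11 lay within 1.5-fold between groups.

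The SNAP25-type family was led by Snap25, the partner of syntaxin 1 in insulin release, at 112.1 FPKM in GFP cells and 107.8 FPKM in p16 cells (q = 0.957 in the authors' deposited table). Snap47 stood at 62.3 and 58.97 FPKM (q = 0.938 in the authors' deposited table). Snap23, the widely expressed counterpart of Snap25, stood at 23.6 and 15.2 FPKM, a log2 ratio of -0.64 with a q above the threshold (q = 0.186 in the authors' deposited table). Snap29 stood at 18.6 and 15.5 FPKM (q = 0.892 in the authors' deposited table), and it shares its locus in the table with Pi4ka and Serpind1, which leaves the division of reads among them uncertain. None of the 4 was called in the authors' deposited table, beside 5.42% of all tested genes, so the lack of a call among so few does not set the family apart.

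Among the VAMPs, Vamp2, the principal SNARE of insulin granules, stood at 139.5 FPKM in GFP cells and 144.9 FPKM in p16 cells (q = 0.957 in the authors' deposited table). Vamp8, which serves a separate set of beta-cell granules, stood at 89.6 and 86.1 FPKM (q = 0.957 in the authors' deposited table). Vamp3, the widely expressed relative of Vamp2, stood at 84.9 and 55.5 FPKM, a log2 ratio of -0.61 with a q above the threshold (q = 0.195 in the authors' deposited table). Vamp1 was low, at 1.31 and 2.02 FPKM (q = 0.4197 in the authors' deposited table). Vamp7 was listed at 0 in both groups at a position on an unplaced part of chromosome X, and it was not tested.

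Snap23 and Vamp3 were the only members with a mean of at least 10 FPKM whose group values differed by over 1.5-fold. The other 33 of those 35 members lay within 1.5-fold, or 94.3%, beside 85.4% of all tested genes at that level. The largest fold among the 35 was 1.56. Over all tested genes the smallest fold called in the authors' deposited table was 1.76 at a mean of 10 to 50 FPKM and 1.77 at 50 FPKM or more. Differences of the size seen in these 35 members were therefore below any that the test called at their levels. A gene that misses the threshold is not shown to be equal between groups.

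**Figure D3:**
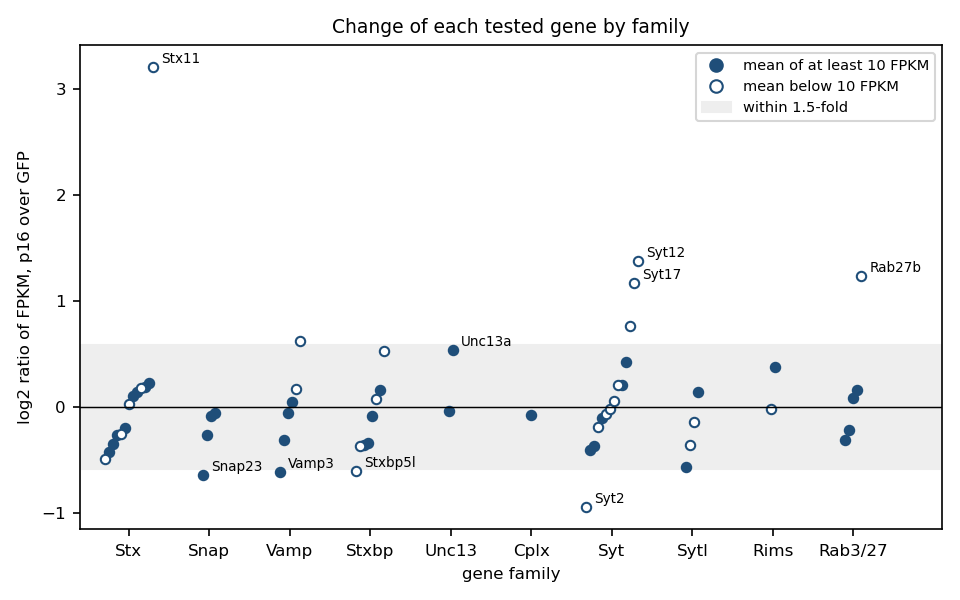
Log2 ratio of FPKM, p16 over GFP (y axis), of each tested member by gene family (x axis); filled points have a mean of at least 10 FPKM, open points a lower mean, the grey band marks ratios within 1.5-fold, and names mark an unadjusted p below 0.05. Filled points stay close to the band, with Snap23 and Vamp3 just outside it, and Stx11 stands at 3.21.

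None of the syntaxin-binding proteins passed. Stxbp3a, the Munc18 of syntaxin 4, stood at 22.1 FPKM in GFP cells and 17.5 FPKM in p16 cells. The table also lists Stxbp3b, a copy that RefSeq classes as a transcribed pseudogene, at 0.567 and 0.818 FPKM, so the values of both are uncertain where reads match either. Inhibitory binding proteins were lower in level. Stxbp6, or amisyn, stood at 12.1 and 9.46 FPKM (q = 0.552 in the authors' deposited table), and Stxbp5l, a tomosyn, stood at 2.33 and 1.54 FPKM (q = 0.255 in the authors' deposited table). Stxbp5, another tomosyn, stood at 5.79 and 6.14 FPKM (q = 0.936 in the authors' deposited table).

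No priming factor passed the test. Unc13a, which encodes Munc13-1, stood at 10.2 FPKM in GFP cells and 14.8 FPKM in p16 cells, short of the threshold (p = 0.0441, q = 0.274 in the authors' deposited table). Unc13b stood at 12.6 and 12.2 FPKM (q = 0.972 in the authors' deposited table). Unc13b had the higher FPKM of this pair with GFP and Unc13a with p16, and in the other 9 of 10 families the most abundant member was the same in both groups. Of the RIM genes, Rims3, a short form of the family, stood at 19.8 and 25.8 FPKM (q = 0.583 in the authors' deposited table). Rims2, the long RIM of beta cells, stood at 7.58 and 7.49 FPKM (q = 0.988 in the authors' deposited table). Rims1 and Rims4 were under 0.2 FPKM and were not tested. A single complexin was abundant, Cplx2, at 88.6 and 84.2 FPKM (q = 0.944 in the authors' deposited table). It made up 99.7% of complexin FPKM with GFP and 99.8% with p16, and Cplx1 stood at 0.125 and 0.0620 FPKM. Cplx3, at 0.147 and 0.0690 FPKM, was not tested.

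The synaptotagmin family was the most abundant of the 10, with a summed 601.5 FPKM in the GFP group and 570.3 FPKM in the p16 group. None of its 14 tested members was called in the authors' deposited table, beside 5.42% of all tested genes. The lack of a call among so few genes does not set the family apart. Most of the summed FPKM came from Syt13, an atypical member that does not bind calcium, at 378.3 FPKM in GFP cells and 353.1 FPKM in p16 cells (q = 0.924 in the authors' deposited table). That is 62.9% and 61.9% of the family. Syt4, an atypical member linked to the maturation of beta cells, stood at 101.3 and 76.8 FPKM (q = 0.473 in the authors' deposited table). Syt7, a calcium sensor of insulin release with high affinity, stood at 42.9 and 57.6 FPKM (q = 0.437 in the authors' deposited table). Syt5 stood at 43.6 and 50.3 FPKM, and Syt9, a fast sensor, at 4.73 and 4.52 FPKM (q = 0.954 in the authors' deposited table). Syt1, the sensor of fast neurotransmission, was low, at 0.723 and 0.753 FPKM. Syt7 stood just below Syt5 in GFP cells and above it in p16 cells.

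The low synaptotagmins Syt2, Syt17 and Syt12 had an unadjusted p below 0.05 in the authors' deposited table without passing the q threshold. They are 21.4% of the 14 tested synaptotagmins, near the 17.2% of all tested genes and the 23.6% of tested genes with a mean below 1 FPKM. Syt2 stood at 1.91 FPKM in GFP cells and 0.996 FPKM in p16 cells (q = 0.163 in the authors' deposited table). Syt17 stood at 0.530 and 1.19 FPKM (q = 0.198 in the authors' deposited table). Syt12 stood at 0.1998 and 0.519 FPKM (q = 0.191 in the authors' deposited table), and it shares its locus with Rhod and A930001C03Rik, which leaves the division of reads among them uncertain. All 7 tested members with a mean below 1 FPKM had the higher value with p16. Of all tested genes at that level 920 were higher and 561 lower. Syt1 and Vamp5 are among the 7 with nearly equal values, 0.422 and 0.477 FPKM for Vamp5. Another 15 members at that level were not tested, so the 7 are not all members of low level.

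The synaptotagmin-like family was led by Sytl4, or granuphilin, a Rab27a effector that docks insulin granules and holds back their fusion. It stood at 257.2 FPKM in GFP cells and 174.3 FPKM in p16 cells, a log2 ratio of -0.56 with a q above the threshold (p = 0.0524, q = 0.298 in the authors' deposited table). Sytl4 made up 88.2% of its family with GFP and 83.1% with p16. Sytl1 stood at 23.2 and 25.6 FPKM (q = 0.875 in the authors' deposited table). Sytl3 stood at 3.15 and 2.47 FPKM (q = 0.7102 in the authors' deposited table).

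Of the Rab GTPases, Rab27a was the most abundant in both groups. Rab3d, known from exocrine granules, stood at 73.3 FPKM in GFP cells and 82.1 FPKM in p16 cells (q = 0.831 in the authors' deposited table). Rab3a, the main Rab3 of neurons, stood at 68.0 and 54.9 FPKM (q = 0.640 in the authors' deposited table), and it shares its locus with Mpv17l2. Rab27b was low, at 0.219 and 0.515 FPKM (q = 0.107 in the authors' deposited table). The signed normal quantile of the authors' p was 2.63 for Rab27b, short of the size that the q threshold corresponds to. After removal of the trend that all genes showed with transcript length and GC content it was 3.27, and that of Syt2, -2.38 as deposited, was -3.14, so these genes passed at the same size under that setting. It called 3 of 58 members, or 5.17%, beside 3.59% of all 13133 genes, 2.86% higher and 0.731% lower. For Stx11 it was 4.06 as deposited and 4.28 with the trend removed.

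**Figure D4:**
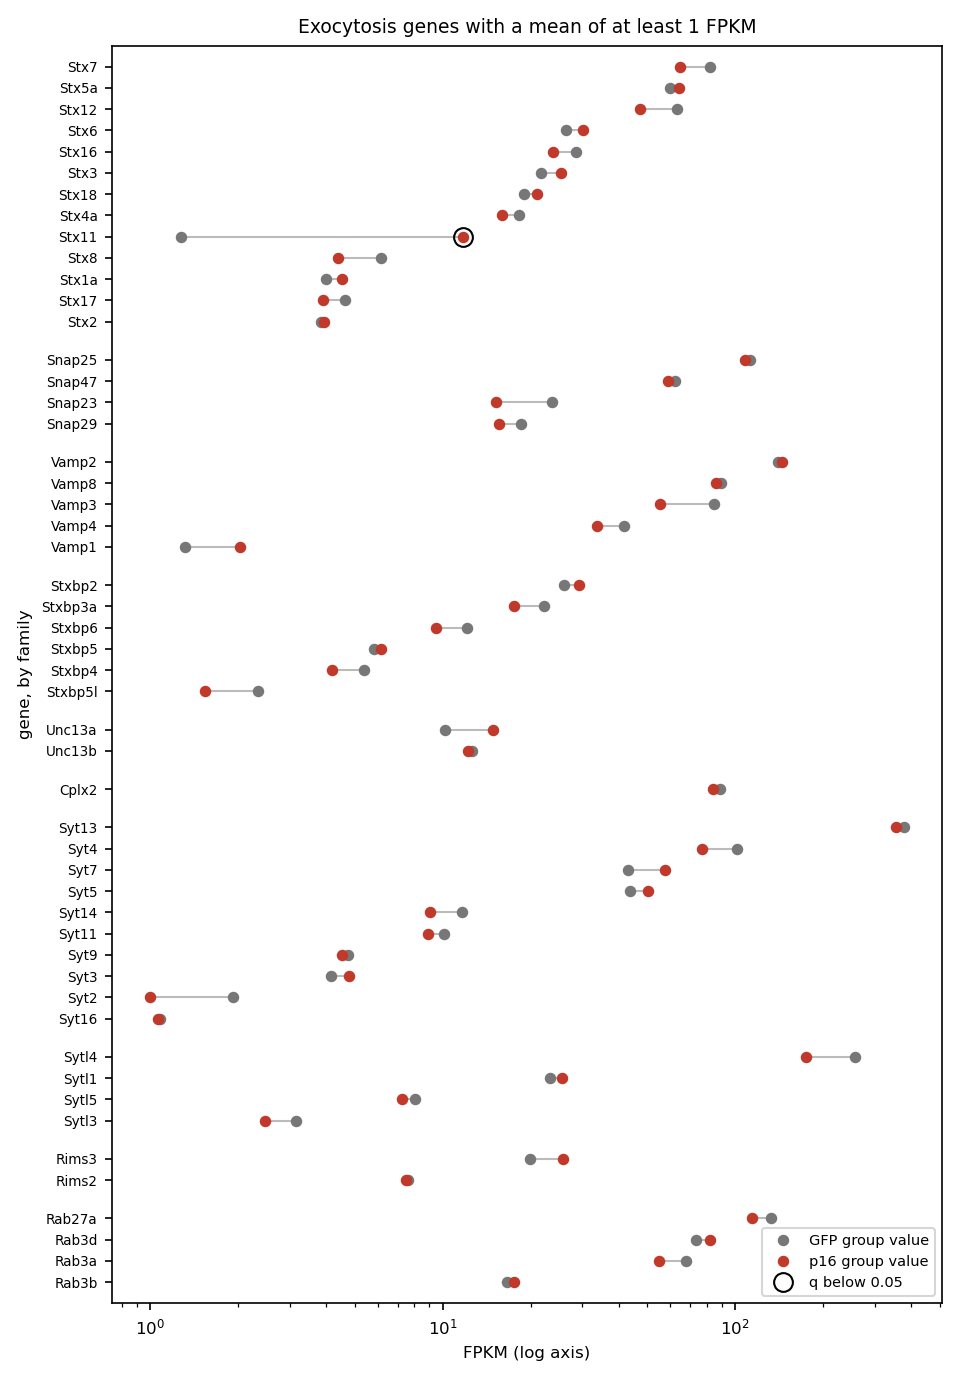
FPKM (x axis, log) of 51 members with a mean of at least 1 FPKM, by family (y axis); grey points are the GFP group value, red points the p16 group value, and the open circle marks a q below 0.05. Most pairs of points lie close together, and the pair of Stx11 lies furthest apart. Syt13 and Sytl4 reach the highest levels, up to 378.3 and 257.2 FPKM.

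Of the 15 members that were not tested in the authors' deposited table, 3 were listed at 0 in both groups (Syt8, Syt10 and Vamp7), and the others together summed to 1.07 FPKM in GFP cells and 1.08 FPKM in p16 cells.

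Other genes of vesicle fusion and exocytosis were read from a list of 87, of which 79 were tested in the authors' deposited table. There 1 was called higher and 0 lower, or 1.27% beside the 5.42% of all tested genes. The gene called was Bsn, which encodes bassoon, a scaffold of the active zone, and rose from 0.814 FPKM in GFP cells to 2.03 (q = 0.00245 in the authors' deposited table). Pclo, the related scaffold piccolo, stood at 13.1 and 19.1 FPKM and missed the threshold (q = 0.288 in the authors' deposited table). Pclo was named after its value was seen. Exoc8, higher with p16, and Mlph, Sec22c, Scfd1 and Vps45, lower with p16, had a smaller unadjusted p and also missed the threshold. At an unadjusted p below 0.05, 3 genes of the list had the higher value with p16 and 4 the lower one in the authors' deposited table, 8.86% of those tested beside 17.2% of all tested genes. The abundant genes of the list did not pass. Syp, which encodes synaptophysin of vesicle membranes, stood at 197.8 and 246.5 FPKM, and Napa, the adaptor that takes SNARE complexes apart, at 105.5 and 114.7 FPKM. Sec22b and Gosr2, SNAREs between the endoplasmic reticulum and the Golgi, had 115.7 and 98.7 FPKM in GFP cells and 97.9 and 96.9 FPKM in p16 cells. Over the whole list 32 tested genes had the higher value with p16 and 47 the lower one, beside 6360 and 6814 of all tested genes. The list is mostly abundant, with 51 genes at a mean of at least 10 FPKM. Of all tested genes at that level 2747 were higher and 3687 lower, so lower values were also the more common there. No difference between subgroups was tested. All 5 SM proteins of other names had the lower value, as did 10 of 12 tested Rab3 and Rab27 regulators and effectors and 9 of 12 SNAREs of other names. In the exocyst, the complex that tethers vesicles, 8 of 10 genes had the lower value with p16, with a median log2 ratio of -0.30. The exocyst gene with the smallest p went the other way. Exoc8 stood at 2.71 FPKM in GFP cells and 4.61 FPKM in p16 cells (p = 0.00825, q = 0.104 in the authors' deposited table). No exocyst gene with the lower value had an unadjusted p below 0.05. Among vesicle membrane proteins 13 of 20 tested genes had the higher value, with a median of 0.25. The median was -0.02 over all tested genes and -0.07 over those with a mean of at least 10 FPKM. The remaining subgroups were more even. Of tested active zone genes 5 were higher and 2 lower, of C2 domain proteins 5 and 4, and of SNARE disassembly genes 2 and 2.

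The sort was checked against markers. Ins1, Ins2 and Iapp carry a status for too many fragments and a listed 0 in either group, so they give no level. Of 7 tested beta-cell markers 1 was called in the authors' deposited table, Slc2a2, the glucose transporter of mouse beta cells, which fell from 401.7 FPKM in GFP cells to 205.2 (q = 0.0242). At an unadjusted p below 0.05, Slc30a8 and Ucn3 also had the lower value with p16 and Pdx1 and Mafa the higher one in the authors' deposited table. The most abundant of the 7, G6pc2, stood at 3012 and 2327 FPKM (q = 0.611 in the authors' deposited table). Alpha, delta and PP cell markers summed to 3975 FPKM in GFP cells and 6677 FPKM in p16 cells over 9 genes, and 4 of 8 tested were called higher in the authors' deposited table (among them Sst, Ppy and Pyy). Over all tested genes 5.42% were called, 4.32% higher and 1.10% lower. Other markers of this list were not called. Gcg stood at 1642 and 2263 FPKM (q = 0.497 in the authors' deposited table) and Ttr at 511.1 and 504.7 FPKM (q = 0.986 in the authors' deposited table). Hhex stood at 1.70 and 1.83 FPKM (q = 0.945 in the authors' deposited table). Alpha, delta and PP cells use the same release machinery, and their part in the members' values was not tested. Of 5 tested duct markers 3 were called in the authors' deposited table. Sox9 rose from 0.122 to 0.492 FPKM and Spp1 from 3.85 to 15.1 FPKM, and Krt19 fell from 5.75 to 1.79 FPKM. Krt7, the most abundant duct marker, stood at 134.0 FPKM in GFP cells and 151.5 FPKM in p16 cells (q = 0.814 in the authors' deposited table). It made up most of the summed duct marker FPKM, 151.3 with GFP and 181.1 with p16. The part of duct cells in the members' values was not tested. Acinar markers, whose cells are rich in Vamp8 and Rab3d, summed to 16.7 and 15.1 FPKM over 11 genes.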

How the data were processed

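Total RNA of sorted cells was sequenced in 3 p16 and 2 GFP samples. Per the submitters' processing notes, TopHat2, Cuffnorm and Cuffdiff were used with the mm9 build; versions, annotation, strand handling and library scaling have no entry in the sources used here. The authors deposited 1 FPKM value per group and gene, with a p-value and q-value per gene, per the file headers. No fit per sample was possible, so the planned use of the authors' q-values, below 0.05, was followed; they equalled Benjamini-Hochberg values within 5.23e-07. The labels do not tie each sample to 1 animal, so these p-values may reflect technical spread in part. Starts were shifted from base 0 to base 1. Ratios carry no pseudocount unless stated.

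The members and lists were chosen with earlier results of these data known, and subgroups by role were set after the values were seen. Named members were those called, the 2 most abundant and 2 most changed of each family on the log2(FPKM + 1) scale, and 16 core release genes; some others are given for context, and some genes are not reported here. Of the other list, called genes and the 4 most abundant were named.

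For 1 alternative, natural splines with 4 degrees of freedom for GC content and log2 length of the longest GENCODE M21 transcript, found for 99.0% of tested genes, were regressed out of signed normal quantiles of the authors' p; they explained 23.1% of the variance. This step was tested on simulated data. Other alternatives changed the q threshold, filters on mean FPKM, the pseudocount and the scaling. Computations used Python 3.11.15 with scipy 1.17.1, pandas 2.3.3, numpy 2.4.6 and, for plots, matplotlib 3.10.9.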

Additional observations from a re-analysis of the deposited data

How the results depend on the processing

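The count of members called stayed at 1, Stx11, with a q below 0.01 or 0.1, after a new adjustment restricted to means of at least 1 or 5 FPKM, and with a fold of at least 2. It was 3 once the trend with GC content and length was removed, with Rab27b and Syt2 added, or 5.17% of 58 members beside 3.59% of all genes, where calls over all genes went from 719 to 471. In the other exocytosis list the count of 1, Bsn, was 0 over genes with a mean of at least 5 FPKM, a filter that leaves Bsn out; of the list's 61 genes at that level 1 was higher and 4 lower at an unadjusted p below 0.05 in the authors' deposited table. Of 34 named members with a ratio, all kept its sign with pseudocounts of 1 and 5 FPKM and with upper-quartile scaling. With the median of tested genes set to 0, a shift of 0.04, the log2 ratios of Unc13b and Rims2 turned to 0.00038 and 0.0202. With quantile normalization of log2(FPKM + 1), those of Snap25, Vamp8, Cplx2 and Syt13 turned to 0.0534, 0.0631, 0.0484 and 0.0531. None of these 6 was called. No replicate could be left out, and no paired analysis was possible because the table holds 1 value per group.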

Other observations

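Because FPKM is scaled by transcript length, levels of genes whose products act together, or of relatives within a family, can be set against each other within a group. Their GC content still differs, at 57.9% for the longest transcript of Stx1a and 38.7% for that of Snap25. Its part in these ratios was not tested. Snap25 stood at 28.1 times the FPKM of its partner Stx1a with GFP and 23.8 times with p16. Vamp2 stood at 35.0 and 32.0 times the FPKM of Stx1a. Snap25 over Snap23 was 4.75 with GFP and 7.10 with p16, and Vamp2 over Vamp3 was 1.64 and 2.61. Stx11 over Stx1a was 0.319 with GFP and 2.59 with p16. Sytl4 over its partner Rab27a was 1.94 and 1.52. None of these ratios has a test, since the table holds no value per sample.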
